A study of Ovis aries with 6 samples.

Results

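The insulin-like growth factor (IGF) genes were measured in dorsal skin of newborn Hu sheep, a breed of Ovis aries kept for the wavy fleece of its lambs. Members were taken by name, as probes with a RefSeq accession whose gene symbol starts with IGF. There were 6 such genes with 9 probes, among 500 named genes with 767 RefSeq probes, on an array of 15008 probes. They covered the ligands IGF1 and IGF2 and the binding proteins IGFBP1, IGFBP2, IGFBP3 and IGFBP5. IGF2, IGFBP2 and IGFBP5 had 2 probes each and the other genes 1 each. Receptors of the system and other binding proteins had no such probe and were not analysed here.

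Skin came from 3 lambs with a large wave and 3 with a small wave coat pattern, each 2 days old. The labels give no treatment and no genotype other than the breed. Per the series' design text, the lambs had 1 sire, and the large wave and small wave lamb of each pair had the same dam. Each lamb was hybridised to its own Cy3 array, and lambs are numbered here by the replicate number of the labels. The comparison asks which genes differ in level between skin of the different coat patterns.

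IGF1 and IGF2 are small secreted hormones that act through the IGF1 receptor, a tyrosine kinase, to promote growth and survival of cells. IGF2 is an imprinted gene read from the paternal copy and is a major growth factor of the fetus. The binding proteins hold the ligands in blood and tissue and set how much of them reaches the receptor. In hair follicles IGF1 made by the dermal papilla helps to keep the follicle in its growth phase.

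No IGF probe passed the adjusted threshold between the coat patterns. The second IGF2 probe had higher values in each large wave lamb than in each small wave lamb, by 1.69-fold between the group means, and such a separation was found in 1 of 9 IGF probes and in 11.1% of all probes tested. The first IGF2 probe had lower mean values in large wave skin, by 2.91-fold, and one IGFBP2 probe by 2.62-fold, with overlapping groups in each. Probes of 1 gene disagreed in the sign of the difference for IGF2 in the 17 alternatives tried, and for IGFBP2 in 13 of them. Some of these alternatives, as those that change only the filter, cannot change the difference of a probe. The count of IGF probes past an adjusted p of 0.05 was 0 of 9, and it was 0 (0%) of 10041 probes tested with limma. At an unadjusted p under 0.05 it was 1 of 9, where the share over all probes tested was 3.81%. Without small wave lamb 1 this count was 4, and the number over all probes rose too, from 383 of 10041 to 1760 of 10008. The IGF count was 0 without large wave lamb 1, large wave lamb 2 or small wave lamb 2. In these settings 260 of 9970, 347 of 10034 and 269 of 9995 probes had such a p.

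The arrays differed in overall brightness. The 75th percentile of the signal was 392, 205 and 249 in large wave lambs 1, 2 and 3, and 285, 152 and 94.7 in small wave lambs 1, 2 and 3. In each same-numbered pair the array of the large wave lamb was brighter, and between 51.4 and 70.7% of spots were well above background. Of 50 probes printed at 5 spots each, 8 were well above background at every spot of every array. The pooled standard deviation (SD) between spots of these 8 was 0.12, 0.45 and 0.22 on the log2 scale in large wave lambs 1, 2 and 3, and 0.20, 0.55 and 0.35 in small wave lambs 1, 2 and 3. These values include spots marked as outliers. Without marked spots the SD was 0.12, 0.35 and 0.22 in large wave lambs 1, 2 and 3, and 0.20, 0.33 and 0.34 in small wave lambs 1, 2 and 3. A probe with 1 spot, as each IGF probe was, carries an error of this kind on each array. Markers of the tissue were present: 6 of 6 hair shaft genes and 4 of 4 inner root sheath genes with a probe were well above background on all 6 arrays, and so was the fibroblast gene DCN. Of the epidermal genes SFN was well above background on all 6 arrays and PRD-SPRRII on 0, and the melanocyte gene TYR was not on all 6. Of 6 skeletal muscle genes 1 was, MYL11, and MB, MYOG and MSTN were on 0 arrays. In skin as a whole, fewer cells of a type and less RNA per cell cannot be told apart.

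Most of the IGF probes gave clear signal. Well above background, as called by the scanner software, were 8 of the 9 on all 6 arrays, where the share was 45.8% over RefSeq probes with a symbol and 47.8% over all probes. Levels below are given as the background-subtracted signal in scanner units, or as the log2 scaled signal, which is log2 of that signal minus the 75th percentile of the array, so that 0 is a probe as bright as that percentile. The brightness of a probe depends on its sequence as well as on the transcript. Levels of different probes are therefore not set against each other.

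**Figure D1:**
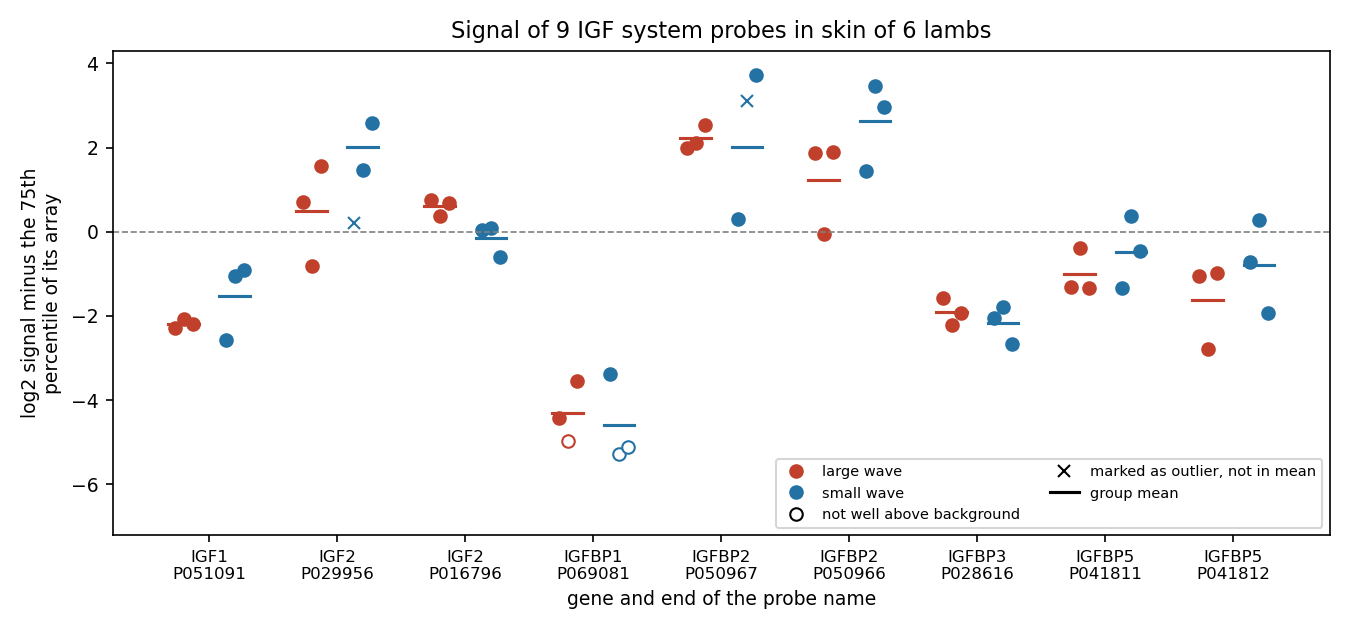
Log2 scaled signal (vertical axis) of the 9 IGF probes (horizontal axis) on 6 arrays. Filled points are well above background, open points are not, crosses were marked as outliers and are left out of the group means (bars). Of the probes shown, A_70_P016796 of IGF2 has its 3 large wave points, 0.38 to 0.75, above its 3 small wave points, -0.60 to 0.09.

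IGF1 was detected on all 6 arrays at modest brightness. Its signal was 80.2, 48.9 and 54.9 in large wave lambs 1, 2 and 3 and 47.6, 73.1 and 50.5 in small wave lambs 1, 2 and 3. This was 6.67 to 11.7 times the lowest signal called well above background on the same array. The probe lay below the 75th percentile on all 6 arrays. On the log2 scaled signal the large wave lambs were close together, at -2.29, -2.07 and -2.18. The small wave lambs spread from -2.58 in replicate 1 over -1.06 in replicate 2 to -0.91 in replicate 3. The groups thus overlapped, with small wave lamb 1 below and the other two small wave lambs above the large wave lambs. Large wave minus small wave was -0.66 ± 0.51 (standard error (SE), n = 3 lambs per group, 95% confidence interval -1.84 to 0.51, limma adjusted p = 0.777). Leaving out small wave lamb 1 gave -1.20, and a model with array brightness gave -0.012. The unscaled signals varied by 1.68-fold over the arrays, the smallest range of the 9 probes, while the 75th percentile of the arrays varied from 94.7 to 392.

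IGF2 gave a different picture at each of its probes, which carry the same RefSeq accession. At the first probe (A_70_P029956) the signal was 642, 116 and 732 in large wave lambs 1, 2 and 3 and 327, 419 and 570 in small wave lambs 1, 2 and 3. The spot of small wave lamb 1 was marked as an outlier for uneven pixels and left out. The log2 scaled signal was 0.71, -0.82 and 1.55 in large wave and 1.46 and 2.59 in small wave lambs 2 and 3. Large wave lamb 2 was the lowest and small wave lamb 3 the highest, and large wave lamb 3 lay above small wave lamb 2. Between the groups the difference (large minus small wave) was -1.54 ± 0.73 (SE, n = 3 and 2, 95% confidence interval -3.27 to 0.19, limma adjusted p = 0.777). With the marked spot kept the difference was -0.93, and without large wave lamb 2 it was -0.89. With the replicate number as block, where only pairs 2 and 3 had both values, it was -1.66 ± 0.45 (SE). After normexp background correction with quantile normalization it was -0.63 (-1.27 with quantile normalization alone), and in the authors' deposited table -0.74.

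The second IGF2 probe (A_70_P016796) had no marked spot. Its signal was 657, 266 and 399 in large wave lambs 1, 2 and 3 and 293, 162 and 62.3 in small wave lambs 1, 2 and 3. The log2 scaled signal was 0.75, 0.38 and 0.68 in large wave and 0.040, 0.088 and -0.60 in small wave lambs. Each large wave lamb lay above each small wave lamb. It follows that the large wave lamb was the higher one in 3 of 3 same-numbered pairs, by 0.71, 0.29 and 1.28. Of all probes tested 4.99% had groups apart with large wave higher and 6.12% with large wave lower. Large wave minus small wave was 0.76 ± 0.32 (SE, n = 3 lambs per group, 95% confidence interval 0.01 to 1.51, limma adjusted p = 0.777). It is the IGF probe counted above at an unadjusted p under 0.05. A model with array brightness gave 0.48, and leaving out small wave lamb 3, the dimmest array, gave 0.54. Its SD within groups, 0.31, was smaller than that of most probes: 16.8% of tested probes with a value on every array had a smaller one, against 87.2% for the first IGF2 probe.

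IGFBP1, a binding protein made mainly by the liver and known for its control by insulin, was the one member near background. Its signal was 18.3, 6.53 and 21.4 in large wave lambs 1, 2 and 3 and 27.4, 3.93 and 2.72 in small wave lambs 1, 2 and 3. It was well above background on 2 of 3 large wave and 1 of 3 small wave arrays. These were the 3 brightest arrays, so that detection went with array brightness. The log2 scaled signal was -4.42, -4.97 and -3.54 in large wave and -3.38, -5.27 and -5.12 in small wave lambs, with overlapping groups. The wave difference, large minus small, was 0.28 ± 0.66 (SE, n = 3 lambs per group, 95% confidence interval -1.26 to 1.82, limma adjusted p = 0.919). The sign turned in 4 of 16 alternatives, some of which cannot change the difference of a probe. With array brightness in the model the difference was -0.41.

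IGFBP2, a binding protein abundant in fetal and newborn serum and made by many tissues, lay above the 75th percentile on all 6 arrays at its first probe and on 5 of 6 at the second. At the first probe (A_70_P050967) the signal was 1565, 886 and 1448 in large wave lambs 1, 2 and 3 and 351, 1307 and 1246 in small wave lambs 1, 2 and 3. The value of 1307 was marked as an outlier and left out. The log2 scaled signal was 2.00, 2.11 and 2.54 in large wave lambs, and 0.30 and 3.72 in small wave lambs 1 and 3. The large wave lambs thus lay between the small wave lambs left. Large wave minus small wave was 0.21 ± 0.91 (SE, n = 3 and 2, 95% confidence interval -1.96 to 2.37, limma adjusted p = 0.959). Its direction was set by 1 small wave lamb: without small wave lamb 1 the difference was -1.50 and without small wave lamb 3 it was 1.92. With the marked spot kept it was -0.16.

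At the second IGFBP2 probe (A_70_P050966) the signal was 1425, 197 and 923 in large wave lambs 1, 2 and 3 and 774, 1666 and 743 in small wave lambs 1, 2 and 3. The log2 scaled signal was 1.86, -0.054 and 1.89 in large wave and 1.44, 3.45 and 2.97 in small wave lambs. Large wave lamb 2 was far below the other lambs, and small wave lambs 2 and 3 were above all large wave lambs. Between the groups the difference (large minus small wave) was -1.39 ± 0.68 (SE, n = 3 lambs per group, 95% confidence interval -2.97 to 0.19, limma adjusted p = 0.777). Without large wave lamb 2 it was -0.75. The large wave lamb was the lower one in 2 of 3 same-numbered pairs, with differences of 0.42, -3.51 and -1.08 in pairs 1 to 3.

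IGFBP3, the main carrier of IGF1 and IGF2 in blood, was detected on all 6 arrays. Its signal was 131, 44.3 and 65.5 in large wave lambs 1, 2 and 3 and 68.5, 44.2 and 14.8 in small wave lambs 1, 2 and 3, which was 3.23 to 14.0 times the lowest signal called well above background on the same array. The log2 scaled signal was -1.58, -2.21 and -1.93 in large wave and -2.06, -1.78 and -2.68 in small wave lambs. The groups overlapped, with large wave lamb 1 the highest and small wave lamb 3 the lowest. Large wave minus small wave was 0.27 ± 0.41 (SE, n = 3 lambs per group, 95% confidence interval -0.68 to 1.21, limma adjusted p = 0.855). Without small wave lamb 3 the difference was 0.015.

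IGFBP5, a binding protein that attaches to the extracellular matrix, had lower mean values in large wave skin at both probes, with overlapping groups. At the first probe (A_70_P041811) the log2 scaled signal was -1.31, -0.38 and -1.33 in large wave and -1.33, 0.37 and -0.47 in small wave lambs. The difference was -0.53 ± 0.51 (SE, n = 3 lambs per group, 95% confidence interval -1.72 to 0.65, limma adjusted p = 0.786). Leaving out small wave lamb 2 gave -0.11, and a model with array brightness gave -0.028. At the second probe (A_70_P041812) the log2 scaled signal was -1.06, -2.79 and -0.98 in large wave and -0.71, 0.28 and -1.93 in small wave lambs. Large wave lamb 2 was the lowest and small wave lamb 2 the highest. The difference was -0.82 ± 0.70 (SE, n = 3 lambs per group, 95% confidence interval -2.44 to 0.79, limma adjusted p = 0.781), and -0.23 without large wave lamb 2. Leaving out small wave lamb 2 gave -0.29, and a model with array brightness -1.50.

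**Figure D2:**
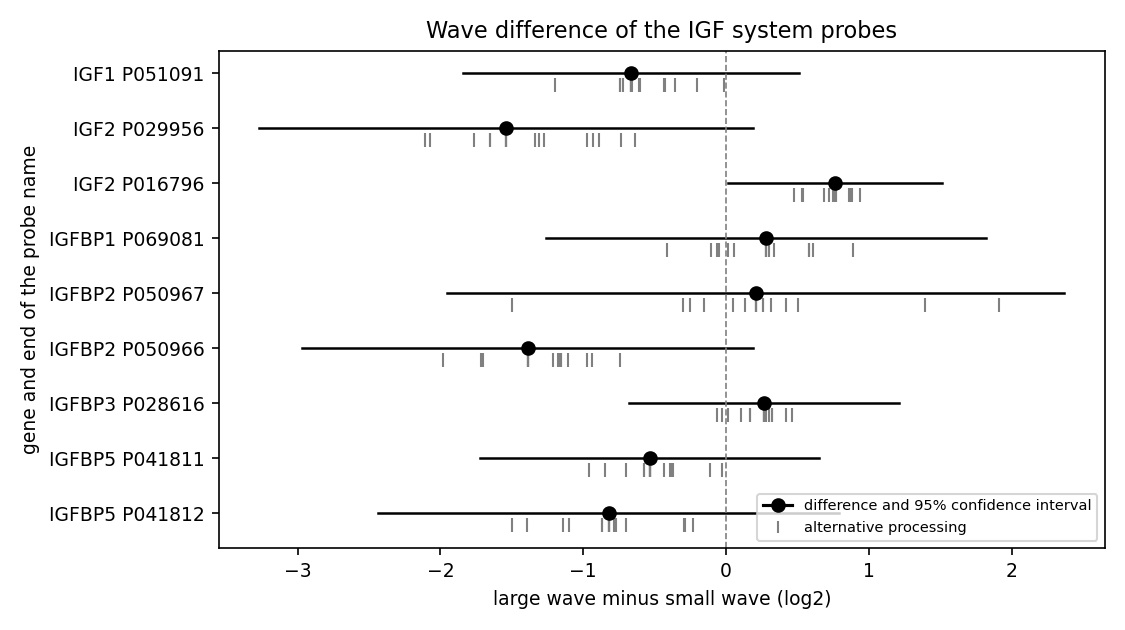
Difference in log2 scaled signal, large wave minus small wave (horizontal axis), of the 9 IGF probes (vertical axis), with 95% confidence intervals from limma (n = 3 lambs per group, 2 small wave lambs for A_70_P029956 and A_70_P050967). Grey ticks are the values under other processing. Of the 9 intervals, that of IGF2 A_70_P016796, from 0.01 to 1.51, leaves out 0, before adjustment.

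As a group, 4 IGF probes had higher and 5 lower mean values in large wave skin, with a median difference of -0.53. Over all 10041 probes tested 4894 were higher and 5147 lower, with a median of -0.019. Over the 486 tested RefSeq probes, from which the IGF probes were taken, 198 were higher and 288 lower, with a median of -0.14. The median size of the difference, whatever its sign, was 0.66 over the IGF probes and 0.40 over all probes tested, and the median SD within groups was 0.90 and 0.55. The median difference of the IGF probes was -0.061 with array brightness in the model. It was -0.11 without small wave lamb 2 and -0.96 without small wave lamb 1.

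Agreement between probes of 1 gene was poor for the 3 genes with a pair of probes. The level of the first over that of the second probe was taken on each array, so that a constant difference in brightness between the probes leaves the ratio the same on every array. For IGF2 this ratio was 0.98, 0.44 and 1.83 in large wave lambs 1, 2 and 3 and 1.12, 2.59 and 9.16 in small wave lambs 1, 2 and 3. For IGFBP2 it was 1.10, 4.49 and 1.57 in large wave and 0.45, 0.78 and 1.68 in small wave lambs. For IGFBP5 it was 0.84, 5.32 and 0.78 in large wave and 0.65, 1.07 and 2.75 in small wave lambs. Large wave lamb 2 held the lowest IGF2 ratio and the highest ratios of IGFBP2 and IGFBP5, and small wave lamb 3 held the highest IGF2 ratio. The ratios of small wave lamb 1 for IGF2 and of small wave lamb 2 for IGFBP2 include a marked spot.

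**Figure D3:**
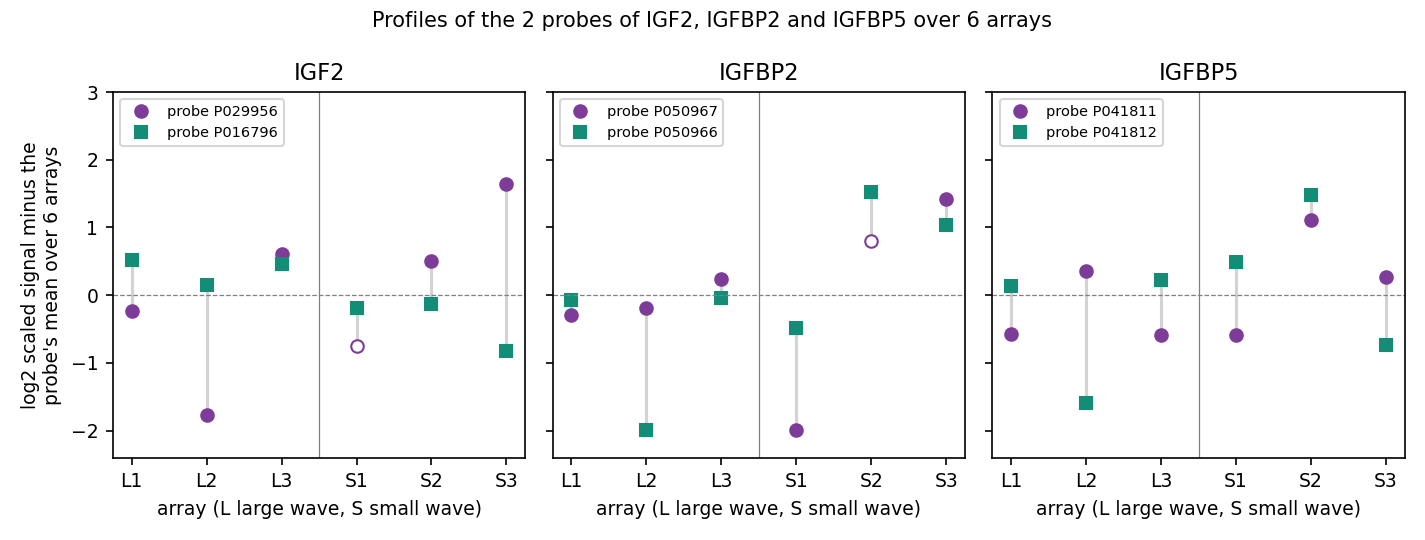
Log2 scaled signal minus the probe's own mean over the 6 arrays (vertical axis), for both probes of IGF2, IGFBP2 and IGFBP5 on each array (horizontal axis). Grey lines join the probes of 1 gene, open points were marked as outliers. The IGF2 probes lie farthest apart in small wave lamb 3, where the first probe gave 9.16 times the signal of the second.

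Set against other genes, these pairs were among the more discordant. The SD over arrays of the log2 difference between probes was 1.64 for IGF2, 1.19 for IGFBP2 and 1.21 for IGFBP5, where its median was 0.59 over 133 named genes with at least 2 tested probes. Of these genes 93.2, 87.2 and 88.7% had a smaller SD. The wave differences of the probes were 2.30 apart for IGF2, and 99.2% of the 133 genes had a smaller distance. The IGF2 distance, first minus second probe, was -2.30 and moved to -1.51 without small wave lamb 3, to -1.51 in the authors' deposited table and to -1.17 with normexp and quantile normalization. For IGFBP2 they were 1.60 apart and for IGFBP5 0.29, where the median gene had 0.37. The IGFBP2 distance was 0.48 without small wave lamb 1, 1.01 without large wave lamb 2 and 3.13 without small wave lamb 3. Leaving out small wave lamb 1 or 3 left its first probe with 1 small wave lamb. Likewise, the first IGF2 probe had 1 small wave lamb left without small wave lamb 3. The IGFBP5 distance was 1.47 with array brightness in the model. The sign of the wave difference was opposite between probes in 37 of the 133 genes (27.8%), IGF2 and IGFBP2 among them. With 5 arrays the test of the difference between the IGF2 probes could not reach 0.05: the mean of the first minus the second probe was -0.12 with large wave and 2.28 with small wave (n = 3 and 2, exact two-sided permutation p = 0.2, the smallest this number of arrays allows). With the marked spot kept the exact two-sided permutation p was 0.2, where 3 against 3 allows 0.1. For IGFBP2 the exact two-sided permutation p was 0.6 (n = 3 and 2) and for IGFBP5 it was 0.8 (n = 3 per group). These 3 tests were not adjusted for their number.

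The arrays with the widest gaps of the IGF probe pairs can be named. In large wave lamb 2 the log2 difference between probes lay -1.71 for IGF2, 1.78 for IGFBP2 and 2.49 for IGFBP5 from the gene's median over arrays. In small wave lamb 3 these distances were 2.68, 0.35 and 1.54, and in large wave lamb 3 they were 0.36, 0.26 and -0.28. Over 104 named genes with a pair of probes measured on all arrays, the median absolute distance was 0.24 in large wave lamb 2 and 0.38 in small wave lamb 3. In each of these arrays 17 genes exceeded 1, against 20 in small wave lamb 2 and 12 in large wave lamb 3. In large wave lamb 1 it was 5 genes and in small wave lamb 1 it was 6. In small wave lamb 1 the distances were -0.36, -1.53 and -0.54, against a median gene of 0.16. In small wave lamb 2 they were 0.85, -0.74 and 0.17, against 0.39. At least 1 of the 3 IGF gaps was above the median gene's on each array, and all 3 were in large wave lamb 2 and small wave lamb 1. Many genes exceed a median by definition, so these counts are only a description. The IGF gaps keep the marked spots, of IGF2 in small wave lamb 1 and of IGFBP2 in small wave lamb 2. The 104 genes needed an unmarked value on every array. The median deviation of neighbouring spots, up to 8 rows and columns away, lay between -0.66 and 0.37 at the IGF probes. At the spots of the probes that were low in large wave lamb 2 it was between -0.059 and 0.050 on that array. The part of spot quality in these gaps was not tested.

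**Figure D4:**
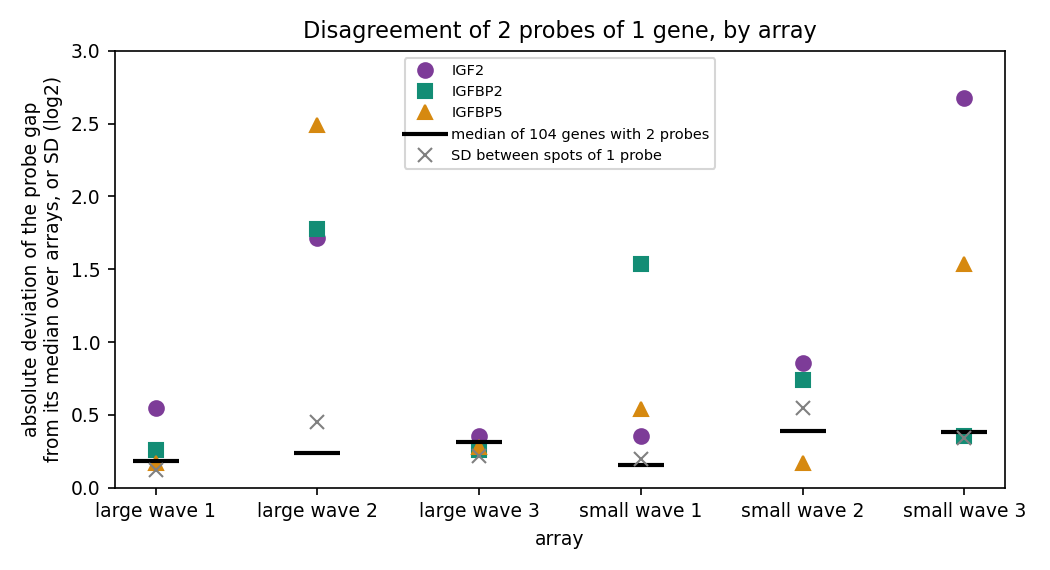
Absolute distance of the log2 difference between the 2 probes of a gene from its median over arrays (vertical axis), for IGF2, IGFBP2 and IGFBP5 on each array (horizontal axis). Black bars are the median over 104 named genes with 2 probes and unmarked values on every array, whereas the IGF points keep marked spots. Grey crosses are the SD between spots of 1 probe, marked spots included. Large wave lamb 2 holds the widest gaps of IGFBP2 and IGFBP5, 1.78 and 2.49, against a median of 0.24.

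Genes around the IGF system were sparse on the array. Of a list of 76 genes of the growth hormone, insulin and IGF signalling pathways, 12 had a RefSeq probe and 6 passed the filter of 3 arrays well above background. Growth hormone (GH), prolactin (PRL), somatostatin (SST), ghrelin (GHRL), the leptin receptor LEPR and the transcription factor STAT5A did not pass it. Among the 6 tested genes 2 had higher and 4 lower mean values in large wave skin, with a median of -0.22, and 0 passed the adjusted threshold of limma, with 1, SFN, at an unadjusted p under 0.05, which 3.81% of all probes tested reached. The groups did not overlap for AKT1 and SFN, 2 of the 6, where the share over all probes tested was 11.1%. That share rests mostly on 3 lambs per group. SFN had 2 lambs per group, which fall apart more easily, so the share is no like background for it. Over 345 named genes 139 were higher and 206 lower, with a median of -0.15.

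AKT1, the kinase that carries the signal of the IGF1 receptor to growth and survival, had the closest values within groups. Its log2 scaled signal was 0.28, 0.18 and 0.22 in large wave and -0.087, -0.45 and -0.55 in small wave lambs 1, 2 and 3, without overlap. The difference was 0.59 ± 0.29 (SE, n = 3 lambs per group, 95% confidence interval -0.09 to 1.27, limma adjusted p = 0.777), and 0.26 with normexp and quantile normalization. GHR, the growth hormone receptor, whose signal raises IGF1, was at -2.37, -2.32 and -3.28 in large wave and -2.43, -1.31 and -2.16 in small wave lambs, a difference of -0.69 ± 0.48 (SE, limma adjusted p = 0.777). The groups overlapped for GHR.

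The other genes of the list were less complete or more variable. SFN, a 14-3-3 protein of epidermis, was at 7.70 and 7.58 in large wave lambs 1 and 3 and at 8.56 and 8.97 in small wave lambs 2 and 3, a difference of -1.12 ± 0.45 (SE, n = 2 per group, limma adjusted p = 0.777). The SFN difference was -0.23 with quantile normalization and 0.12 with normexp and quantile normalization together. Its spots on the other arrays were marked as outliers. GHRHR, the receptor of growth hormone releasing hormone, was well above background on 3 of 6 arrays and differed by 0.49 ± 0.85 (SE, limma adjusted p = 0.877), and SLC2A3, a glucose transporter, by -0.35 ± 0.54 (limma adjusted p = 0.858). The plasminogen activator PLAU, well above background on 3 arrays, differed by -0.091, a value whose sign turned without large wave lamb 2, to 0.25. For GHRHR and SLC2A3 the sign turned with array brightness in the model, to -0.42 and 0.52.

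**Figure D5:**
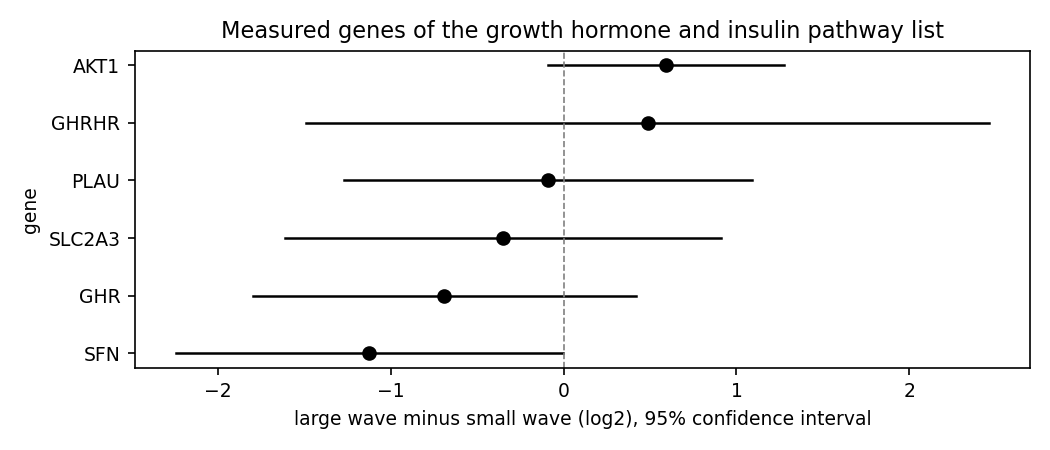
Difference in log2 scaled signal, large wave minus small wave (horizontal axis), of the 6 tested genes of the growth hormone, insulin and IGF pathway list (vertical axis), with 95% confidence intervals from limma. The values run from -1.12 for SFN to 0.59 for AKT1.

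Genes with profiles most like those of IGF2 and IGFBP3 were sought among 312 named genes with a value on all 6 arrays. With the first IGF2 probe, Pearson's r over the 6 arrays was highest for IRAK4, a kinase of innate immune signalling (0.96), PRKAA2, a catalytic subunit of AMP-activated kinase (0.96), and AANAT, an enzyme of melatonin synthesis (0.94). The marked IGF2 spot of small wave lamb 1 was kept for these values. Without it, over 5 arrays, r was 0.96, 0.99 and 0.99, and IRAK4 ranked in place 4. In the authors' deposited table it was 0.88, 0.95 and 0.87. PRKAA2 and AANAT were each well above background on 4 of 6 arrays, so that r rests in part on values that were not. With the second IGF2 probe the same genes had r of -0.60, -0.54 and -0.27, so that the likeness did not extend to that probe. With IGFBP3, r was highest for CDKN1C, an inhibitor of the cell cycle (0.97), ITGB1, the integrin beta-1 subunit (0.96), and PSMD4, a subunit of the proteasome (0.90). CDKN1C and PSMD4 were each well above background on 5 of 6 arrays. The authors' deposited table gave r of 0.97, 0.90 and 0.85 for these genes. All these values share the same 6 arrays and their brightness and were picked as the highest of 312, and they are given as a description.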

How the data were processed

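Total RNA of each lamb was labelled with Cy3 and hybridised to 1-colour arrays, per the labels' protocols. The authors deposited 1 scanner file per array with the intensity of each spot, background-subtracted by Agilent Feature Extraction. Its version is 10.7.3.1 in the file headers and 10.7 in the submitters' processing notes. Their deposited value table holds log2 values of 15068 rows; the labels and headers do not state how it was normalized. It was tried as an alternative, with marked spots as the authors had them. For IGF1 it gave a wave difference of -0.740, against -0.741 with quantile normalization here, and for the second IGF2 probe 0.774 against 0.772. At such probes without a marked spot these settings are hardly separate alternatives.

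Here log2 intensity minus the 75th percentile of each array was taken over 15208 spots without controls. Spots marked as outliers (uneven pixels or population) were left out, and replicate spots averaged. Of 15008 probes, 10048 passed the filter of 3 or more arrays well above background, and 10041 of these left a residual degree of freedom and a value in both groups and were tested. Groups were compared with limma 3.58.1 (R 4.3.3; lmFit, then eBayes with trend; Benjamini-Hochberg adjustment over every tested probe; threshold 0.05). The fit was tried on simulated data with independent noise, no pairing and effects larger than any IGF difference of the main fit. It therefore does not show how well differences of the size seen here would be found. The number of arrays limits the precision: the median 95% confidence interval reached 1.06 to either side over all tested probes and 1.54 over the IGF probes. Gene names came from RefSeq accessions, matched without versions to the table of assembly ARS-UI_Ramb_v3.0 (767 of 786 probes). No genome or sequence table was used, so no coordinates or sequences are given. Exact permutation tests used scipy 1.17.1.

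The main fit had no block, so its SEs, confidence intervals and p-values leave out the pairing. For same-numbered differences and the replicate block, the numbers in the labels were taken to pair the lambs. The deviations of same-numbered lambs from their group means correlated at 0.30, 0.18 and 0.20 over 9220 probes. With the block the SE was 0.45 against 0.73 for the first IGF2 probe, and 0.76 against 0.70 for the second IGFBP5 probe. The replicate number is also the column of the slide, so the correlations cannot tell a shared dam from a shared column. No label says that it marks the dam. Slide row 1 held large wave lambs 2 and 3 and small wave lamb 1, and row 2 held large wave lamb 1 and small wave lambs 2 and 3. Coat pattern was thus not balanced over the slide rows. The named genes are all IGF probes, up to 3 higher and 3 lower pathway genes by smallest unadjusted p (PLAU, the only other gene tested, was added after its value was seen), and the 3 genes most like IGF2 and IGFBP3. A gene's tested probe with the highest mean represents it. The members and lists were chosen with earlier results of these data known. The subtraction of neighbouring spots was added after seeing the data, and the other alternatives were listed earlier.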

Additional observations from a re-analysis of the deposited data

How the results depend on the processing

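The number of probes past the adjusted threshold of limma was 0 in each of 17 alternatives, for all probes and for the IGF probes. The number at an unadjusted p under 0.05, 383, was 137 with slide row as block and 247 with array brightness in the model, and ranged from 153 to 1760 when each array was left out in turn (leaving out small wave lamb 1 gave 1760, small wave lamb 3 gave 196 and large wave lamb 3 gave 153). With the replicate block it was 558. The pairing changed no call at the adjusted threshold. Among the IGF probes 1 had an unadjusted p under 0.05 in the main fit. This number was 0 with normexp and quantile normalization, without the filter, and without the variance trend. With slide row as block or with brightness in the model it was 0 as well. The count was 1 in the other settings that used all 6 arrays, but with the replicate block it was another probe. There it was the first IGF2 probe, lower in large wave skin at -1.66 ± 0.45 (SE), with values for both lambs in pairs 2 and 3 only. The second IGF2 probe, higher in large wave skin, had 0.76 ± 0.32 (SE) with the block and was not counted. The median over the IGF probes was -0.061 with brightness and -0.96 to -0.11 with arrays left out. In the pathway list 4 genes were higher with normexp and quantile normalization together and 1 with the filter of all 6 arrays. The IGFBP5 probes lay -0.15 apart with normexp and quantile normalization and 1.47 with brightness, and from -0.62 to 0.86 with an array left out. Those of IGFBP2 lay 0.80 apart with normexp and quantile normalization, 0.93 with neighbouring spots subtracted, 2.55 with brightness, and 0.48 to 3.13 with an array left out. For IGF2 the range with an array left out was -2.99 to -1.51. Signs turned for IGFBP1 (-0.050 with the slide row, -0.41 with brightness, -0.10 without large wave lamb 3, -0.061 without small wave lamb 2, up to 0.89 without small wave lamb 1), for the first IGFBP2 probe (-0.30 with normexp and quantile normalization, -0.16 with marked spots kept, -0.25 with neighbouring spots subtracted, -1.50 without small wave lamb 1 and 1.92 without small wave lamb 3) and for IGFBP3 (-0.030 with normexp and quantile normalization, -0.061 with brightness). They also turned for GHRHR (-0.42 with brightness, and from -0.23 without large wave lamb 1 to 1.38 without large wave lamb 3), SFN (0.12 with normexp and quantile normalization, -0.23 with quantile normalization alone), PLAU (0.016 with normexp and quantile normalization, 0.11 without small wave lamb 1, from -0.42 without large wave lamb 1 to 0.25 without large wave lamb 2) and SLC2A3 (0.52 with brightness, 0.084 without large wave lamb 1, 0.13 without small wave lamb 3, down to -0.72 without small wave lamb 1). IGF1, both IGF2 probes, the second IGFBP2 probe and both IGFBP5 probes kept their sign in the 17 alternatives. Several of these could not turn a sign. The filters and the variance trend leave the difference of a probe as it was. So do kept marked spots and the replicate block at probes without a marked spot. The setting of normexp and quantile normalization changed both steps at once, and it adds 50 before log2, which shrinks the differences of dim probes. The median over all probes was -0.21 without the filter, which keeps dim probes, and -0.10 with the strict filter, against -0.019. Other causes were not tested.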
